A study of Mus musculus with 4 samples.

Results

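Microglia are the resident macrophages of the brain and spinal cord, and they are usually recognised in tissue by a small set of transcripts. *Aif1* (encoding Iba1), *Csf1r*, *Cx3cr1*, *P2ry12*, *Tmem119*, *Trem2*, *Itgam* (CD11b), *Ctss* (cathepsin S) and *Mertk* are 9 such marker genes. Their peaks of N6-methyladenosine (m6A), an internal mRNA mark found mostly near stop codons and in 3′-UTRs, were taken by gene name from the tables of a MeRIP-seq study of mouse spinal cord. In MeRIP-seq, RNA fragments captured by an antibody against m6A (IP) are set against the uncaptured fragments (input). Of the 9 genes, 8 had at least 1 row among the 13558 gene names of the tables, with 22 of the 33556 peaks of the CCI list, 21 of the 34406 peaks of the sham list and 2 of the 4812 rows of the differential table. *Trem2*, a lipid-sensing receptor, had no row in any of them.

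C57BL/6J mice, 6 to 8 weeks old, gave the spinal cords, which were taken 7 days after the operation. In the CCI group (chronic constriction injury) silk ligatures were tied loosely around the sciatic nerve, and in the sham group the same surgery was done without ligatures. Each group was sequenced as 1 IP and 1 input library, so the differences given here were not checked in replicates and carry no p-value. How many mice entered a library was not given in the sources used here, and the depth is unknown because the tables hold no read counts.

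In the central nervous system microglia survive by signalling through CSF1R, whose ligands are CSF1 and IL-34, and they sense neurons through CX3CR1, the fractalkine receptor. P2RY12 is the ADP receptor that steers their processes to sites of damage, and MERTK is a receptor for engulfing dead cells and membranes. After peripheral nerve injury, spinal microglia are known to multiply and change shape around the injured afferents. An m6A peak describes how strongly a stretch of mRNA was captured relative to its input. The libraries come from whole tissue, in which fewer cells of a type and less RNA per cell cannot be told apart.

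The tissue carried the markers of spinal cord. At least 1 list held a peak for 9 of 9 oligodendrocyte genes, 8 of 9 neuronal genes, 8 of 9 astrocyte genes, 7 of 9 endothelial genes and 8 of 9 spinal *Hox* genes. None of 10 lymphocyte and neutrophil genes had a peak, and 6 of 9 genes of border macrophages and monocytes, including *Mrc1*, *Ccr2*, *Pf4* and *Ms4a7*, had none. A missing peak does not show that a cell type was absent, since the neuronal gene *Nefl*, the astrocyte gene *Aldoc* and *Trem2* had none either. *Cd163*, *Stab1* and *Lyve1* had peaks, and these macrophage genes are given again beside the comparison of CCI with sham. *Csf1r*, *Cx3cr1*, *Itgam*, *Ctss*, *Aif1* and *Mertk* are expressed by such macrophages as well.

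The peaks of the microglia markers lay mostly at the ends of the transcripts. By the authors' annotation, 16 of 22 peaks in CCI (72.7%, 95% Wilson interval 51.8 to 86.8%, counting error only) and 14 of 21 in sham (66.7%, 45.4 to 82.8%) were in a 3′-UTR. Over all peaks the shares were 49.8% in CCI and 48.9% in sham. *Cx3cr1* and *Csf1r* supplied most of the rows, with 7 each in CCI and 6 each in sham, whereas the median gene of either list had 2. The 3′-UTR counts include *Csf1r* rows that lie beyond the RefSeq end of that gene, over *Hmgxb3*, and are described below. Rows of the same gene are not independent, and the *Csf1r* rows in CCI formed 5 regions once overlapping rows were merged. The intervals allow for neither, so a 3′-UTR excess of the markers was not tested. A gene with 5 or more rows was 14.7% of the genes in the CCI list and 13.9% in the sham list. The median fold enrichment (IP over input, as deposited) of the marker peaks was 4.70 in CCI and 4.14 in sham, against 5.73 and 5.70 over all peaks.

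*Cx3cr1*, with *Csf1r*, had the most rows, and its rows within a list did not overlap (ENSMUSG00000052336, GRCm38, minus strand, chr9:120048683-120068296 in RefSeq). The strongest stood just upstream of the transcript end, at chr9:120048910-120049387 in CCI with a fold enrichment of 135 and at chr9:120048910-120049327 in sham with 103. These exceeded 99.1% of the CCI peaks and 98.7% of the sham peaks. The other *Cx3cr1* peaks had fold enrichments between 2.16 and 10.4, so a single site stood far above the rest of the same mRNA in both groups.

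Upstream of that site, a pair of 3′-UTR peaks was higher in CCI. At chr9:120050312-120050550, called with identical borders in both lists, the fold enrichment was 6.08 in CCI and 4.48 in sham. At chr9:120050878-120051296 it was 5.73 in CCI, against 4.14 for the sham peak at chr9:120050938-120051326. The remaining pairs lay close together or slightly lower in CCI. They had 2.66 in CCI and 3.22 in sham for the peak starting at 120049596, and 3.72 and 3.97 for the exon 2 peak starting at 120051922.

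Further *Cx3cr1* sites were in 1 list alone. The CCI list had a peak at chr9:120050013-120050222 (fold enrichment 2.54) and a short peak of 90 bp at the very end of the mRNA (chr9:120048731-120048820, 10.4, log10 p -2.74). The sham list had a peak of 120 bp in exon 2 (chr9:120051415-120051534, 2.16). The first of these sites overlaps the single *Cx3cr1* row of the differential table, at chr9:120050013-120050162, where the authors' fold enrichment over both groups was 1.74.

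*Csf1r* had the highest fold enrichment among the markers in CCI, while in sham *Cx3cr1* had it (ENSMUSG00000024621, plus strand, RefSeq span chr18:61105572-61131139). The peak across the RefSeq gene end, chr18:61130950-61131220 in CCI and chr18:61130921-61131220 in sham, stood at 182 in CCI and 74.4 in sham, a ratio of 2.45. Its log10 p of IP against input went the other way, from -103 in sham to -83.4 in CCI. Upstream of this end peak, another 3′-UTR peak and the peak of exon 3 were weak. At chr18:61130411-61130771 the fold enrichment was 1.87 in CCI and 1.91 in sham, and in exon 3 it was 1.47 in CCI and 1.95 in sham. A further sham peak in exon 21 of 22 (1.65) had no counterpart in CCI.

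Beyond the RefSeq end of *Csf1r*, more rows carried its name, all annotated to a 3′-UTR. These were 4 CCI rows in 2 overlapping sets and 2 overlapping sham rows. At chr18:61131849-61132149, with the same borders in both lists, the fold enrichment was 4.18 in CCI and 5.04 in sham. The pair of CCI rows from 61131547 to 61131759 (3.73 and 4.13) overlapped no sham peak. All 6 rows lie over *Hmgxb3*, a gene on the minus strand (chr18:61131277-61177050), and the CCI list gives the name *Hmgxb3* to a peak of 3.55 at chr18:61132293-61132532, inside the longer sham *Csf1r* row. The single *Csf1r* row of the differential table (chr18:61131786-61132174) is in the same stretch, so which of the 2 genes it describes was not tested.

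**Figure D1:**
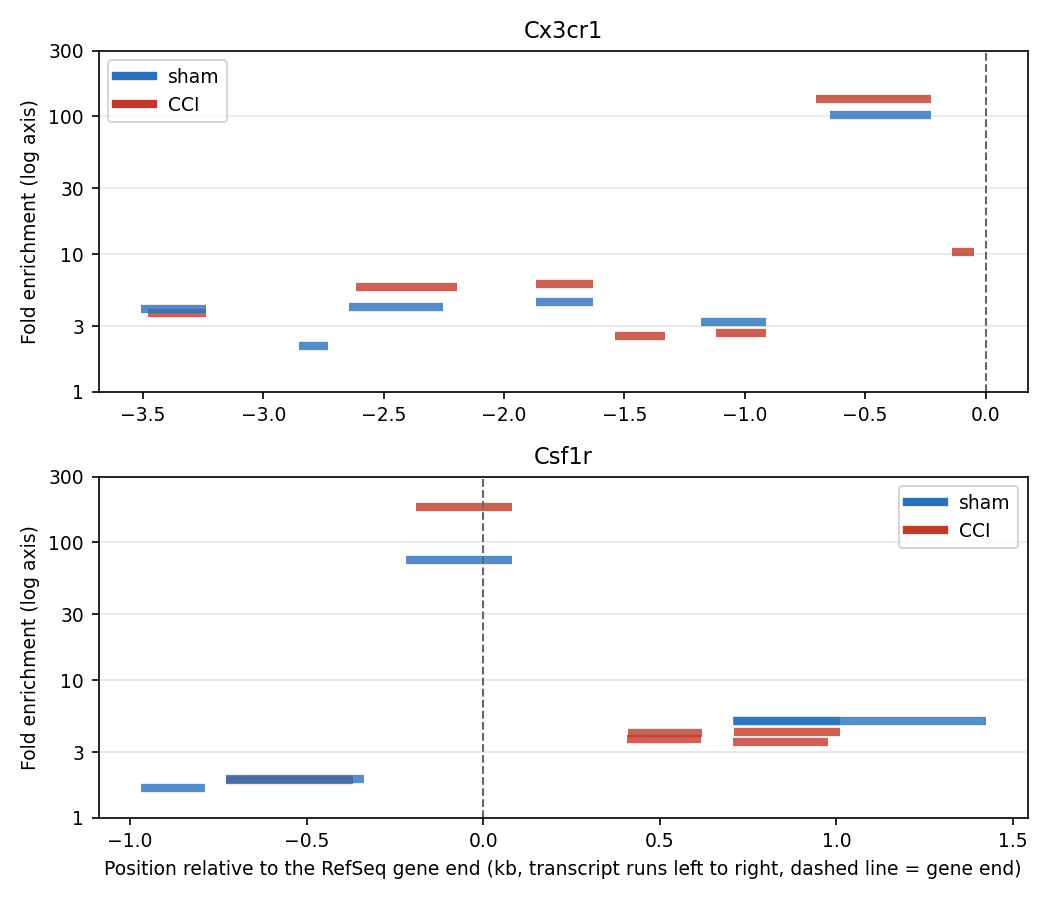
Fold enrichment of IP over input (log axis) of each peak within 5 kb of the RefSeq gene end of *Cx3cr1* and *Csf1r*, against position in kb, with the transcript running left to right and 1 bar per peak as wide as its genomic span. In both genes 1 site near the gene end stands far above the others (103 and 135 at *Cx3cr1*, 74.4 and 182 at *Csf1r*, sham and CCI), and the *Csf1r* bars right of the dashed line lie over *Hmgxb3*.

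*Mertk* was higher in CCI at its exon 2 peak and close in both groups at its last-exon peak (ENSMUSG00000014361, chr2:128698915-128803162, plus strand). In exon 2 of 19 (chr2:128729277-128729486, the same borders in both lists) the fold enrichment was 6.35 in CCI and 3.49 in sham, a log2 ratio of 0.86. In the last exon, from 128801250, it was 3.82 in CCI and 3.53 in sham (log2 ratio 0.11). The log10 p was -13.4 in CCI and -9.89 in sham in exon 2, and -22.3 and -26.2 in the last exon. The sham peak there was annotated to the 3′-UTR (end at 128801698) and the CCI peak to exon 19 (end at 128801638).

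*P2ry12* (ENSMUSG00000036353, chr3:59216271-59262985, minus strand) was higher in CCI at both peaks, from low levels. The 3′-UTR peak had a fold enrichment of 2.70 over 151 bp in CCI (chr3:59217140-59217290) and 1.64 over 61 bp in sham. Its log10 p was -9.31 in CCI and only -3.42 in sham, and the pair shared 0.404 of the joined bases. The other peak, in 2 blocks from 59227698 to 59232451 in CCI, had 5.21 in CCI and 3.31 in sham. It was annotated to exon 16 of 44 of *Med12l*, in whose span (chr3:59005419-59318446) the whole of *P2ry12* lies, so this row cannot be assigned to *P2ry12* with certainty. Its log10 p, -3.34 in CCI and -4.43 in sham, was among the weakest of the marker peaks.

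*Itgam*, the integrin alpha chain known as CD11b, had a single 3′-UTR peak (ENSMUSG00000030786, plus strand, chr7:128117385-128117654 in CCI). Its fold enrichment was 12.2 in CCI and 7.98 in sham, and its log10 p was close in both lists (-46.3 and -44.7). The sham peak spanned chr7:128117415-128117654.

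*Tmem119*, a membrane protein used to tell microglia from other macrophages, was lower in CCI at both of its 3′-UTR peaks (ENSMUSG00000054675, chr5:113793729-113800396, minus strand). At the transcript end (chr5:113793729-113794085, the same borders in both lists) the fold enrichment was 14.8 in CCI and 29.6 in sham. Over the upstream peak of 1217 bp (chr5:113794204-113795420 in CCI) it was 6.35 in CCI and 10.2 in sham. The log10 p was weaker in CCI at both sites, -28.3 against -64.1 at the end and -53.5 against -82.3 upstream.

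*Aif1*, the actin-binding protein Iba1, had a single peak in a different part of the mRNA (ENSMUSG00000024397, chr17:35170986-35176083, minus strand). It was annotated as 5′-UTR and lies inside the RefSeq gene, with its midpoint 1509 bp from the gene end in CCI and 1420 bp in sham. The fold enrichment was 13 in CCI (chr17:35172323-35172667, 2 blocks) and 37.2 in sham (chr17:35172174-35172638, 3 blocks), a ratio of 0.350. Both calls were modest in p (log10 p -6.86 and -9.47) for their fold, and the borders shared 62.7% of the joined bases. *Ctss*, the lysosomal protease cathepsin S, had only a sham peak, of 60 bp at the transcript end (chr3:95556344-95556403, 5.81, log10 p -5.31).

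**Figure D2:**
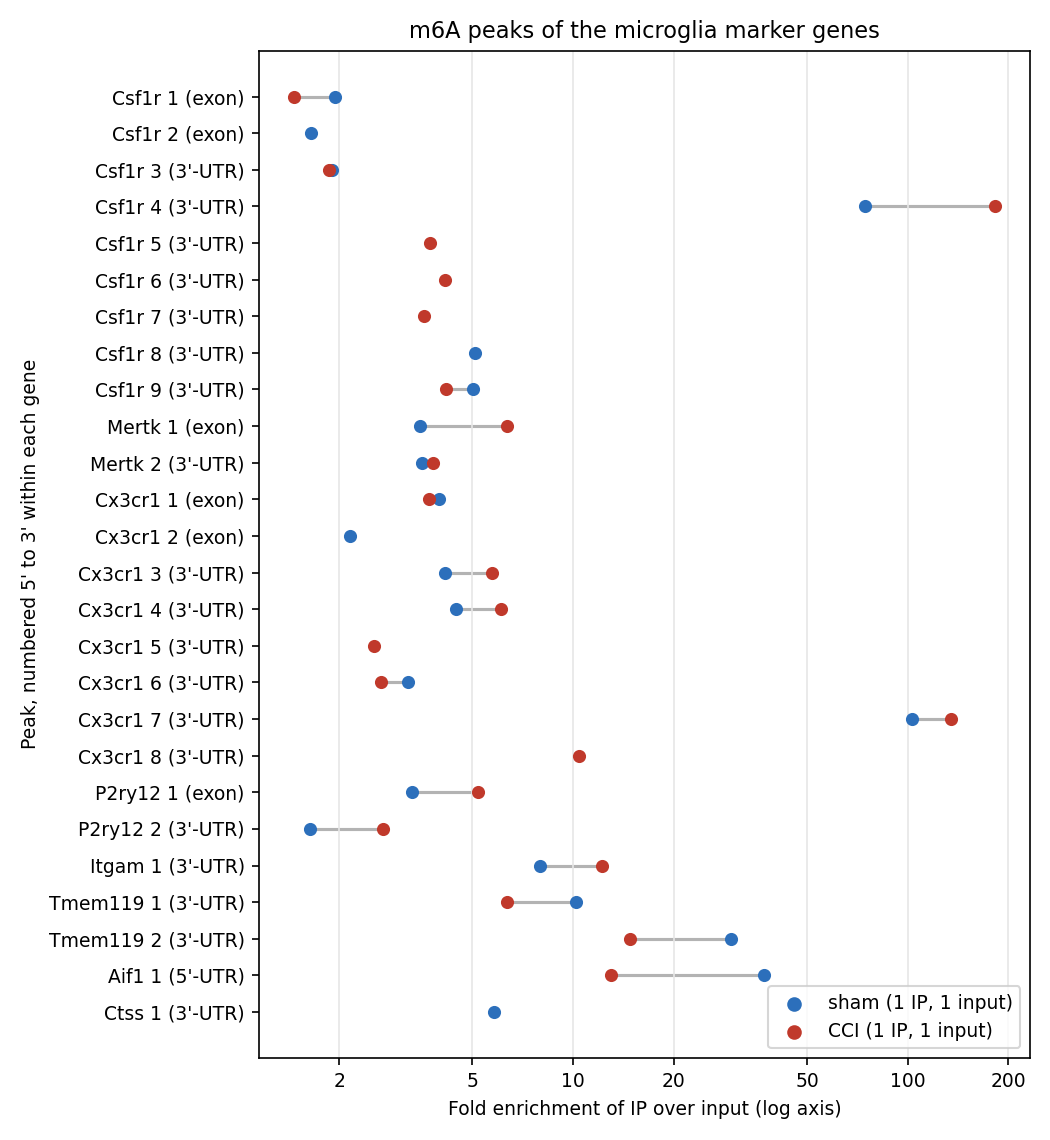
Fold enrichment of IP over input (log axis) of every peak of the microglia marker genes in CCI (red) and sham (blue), 1 library pair each, numbered 5′ to 3′ within a gene, with grey lines joining paired peaks. *Aif1* and both *Tmem119* peaks sit lower in CCI, and the first *Mertk* peak, both *P2ry12* peaks and the *Itgam* peak sit higher. The last-exon pair of *Mertk* is close in both groups, and *Cx3cr1* and *Csf1r* hold pairs of either direction.

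The question of the study's design was which m6A sites differ between CCI and sham. For the markers, 18 of 22 CCI peaks (81.8%, 61.5 to 92.7%) overlapped a sham peak by at least 1 bp, and 18 of 21 sham peaks (85.7%, 65.4 to 95.0%) overlapped a CCI peak. Over all peaks these shares were 87.7% and 83.9%, within the counting error of the markers. Pairs were formed where each peak was the best partner of the other, which gave 17 marker pairs among 27380. Their median log2 ratio of fold enrichment, CCI over sham, was 0.11 (from -1.52 to 1.29), against 0.03 over all pairs (middle 50% from -0.37 to 0.43). Of the 17 marker pairs, 9 were higher and 8 lower in CCI (51.8% of all pairs were higher), so the markers as a set showed no common direction.

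With a difference taken as an absolute log2 ratio of at least 1, 1 marker pair was higher in CCI (8.59% of all pairs were) and 2 were lower (7.25% of all pairs). The higher one was the *Csf1r* end peak (log2 ratio 1.29), and the lower ones were *Aif1* (-1.52) and the *Tmem119* end peak, which lay on the threshold itself (14.8 is 0.5 of 29.6). At a threshold of 0.5, 5 pairs were higher, in *Csf1r*, *Mertk*, *P2ry12* (both peaks) and *Itgam*, against 22.1% of all pairs. The exon peak of *P2ry12* among them is the one annotated to *Med12l*. At this threshold 3 pairs were lower, in *Aif1* and *Tmem119* (both peaks), against 19.4%. These counts are too small to set the markers apart from the background shares.

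The marker pairs past 1 all had a geometric mean fold enrichment of at least 20, a class set after the values were seen. Among the 3656 pairs of this class, 29.5% were past an absolute log2 ratio of 1. Over all pairs, 8.59% were past it higher and 7.25% lower in CCI. The 4 marker pairs in the class were the end peaks of *Csf1r*, *Tmem119* and *Cx3cr1* and the peak of *Aif1*, and 3 of them were past 1. Whether the class bears on these marker differences was not tested. The p of IP against input was weaker in CCI for 13 of the 17 marker pairs, and for 69.9% of all pairs. In 5 of the 17 pairs, and in 28.3% of all pairs, the fold enrichment and the p were ordered oppositely between the groups, the end peaks of *Csf1r* and *Cx3cr1* among them. For 2 of the 8 marker genes with a peak the differential table held a row, against 25.3% of the gene names of the peak lists.

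The ligands of these receptors are made largely by other cells, and 9 of 10 ligand and partner genes had a peak. *Csf1*, the main CSF1R ligand, had 4 pairs with fold enrichments of 2.04 to 25.8 in CCI and 2.97 to 20.3 in sham, whose log2 ratios ran from -0.54 to 0.35. *Il34*, the other CSF1R ligand, was lower in CCI at its stronger pair (10.9 in CCI, 23.8 in sham, log2 ratio -1.13) and at its weaker one (2.35 and 3.57). *Cx3cl1*, the neuronal ligand of CX3CR1, had 1 pair higher in CCI (9.67 and 5.89) and 2 lower (6.47 and 8.92, 2.22 and 2.47).

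The bridging ligands of MERTK differed in how many rows were listed, counted without merging rows that overlap. Over all sham peaks, 83.9% overlapped a CCI peak. *Gas6* had 5 sham peaks with a highest fold enrichment of 24.4 and 2 CCI peaks with a highest of 3.07, and its 2 pairs had log2 ratios of -0.55 and 0.11. *Pros1* had a single peak, in CCI (3.01). *Axl* and *Tyro3*, the other receptors of the MERTK family, had 3 and 4 pairs with log2 ratios of 0.17 to 0.29 and -0.47 to -0.03. None of the pairs of the MERTK ligands and related receptors was past 1.

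Among the signals that restrain microglia, *Cd47* had 3.01 in CCI and 1.90 in sham, and *Cd200* had 2.56 and 2.64, while *Cd200r1* had no peak. *Sirpa*, the receptor for CD47, had 7 pairs with log2 ratios from -0.61 to 1.62, the highest from 2.80 in sham to 8.60 in CCI. *Tgfb1*, the cytokine that maintains the microglial programme, had 36.5 in CCI and 25.4 in sham at its pair. Over all 21 pairs of the ligands and partners the median log2 ratio was 0.02, with 1 pair past 1 in each direction.

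Of a list of 46 other microglia genes, 32 had a peak, 27 of them in both lists, and their 52 pairs had a median log2 ratio of -0.03, with 25 higher and 27 lower in CCI. The pairs past 1 that were higher in CCI included those of *Spi1* (16.2 in CCI and 5.11 in sham), *Inpp5d* (14.7 and 5.00) and *Selplg* (12 and 5.24). *Spi1* encodes PU.1, the factor that sets the myeloid programme. The pairs past 1 that were lower in CCI were *Itgb5* (29.2 and 103) and *Tlr4* (12.5 and 26.7), the endotoxin receptor. *Siglech*, a microglial lectin, had the highest fold enrichment of the list, 232 in CCI and 136 in sham.

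Some of the other microglia genes were in 1 list alone. *Cd33*, *Ikzf1* and *Irf8* had peaks only in CCI, with highest fold enrichments of 10.4, 13.6 and 5.47, and *Fcgr3* (13.9) and *Plcg2* (4.36) had peaks only in sham. Of these microglia genes, 30 had a peak in CCI and 29 in sham, with 27 in both. Over the whole lists, 12408 of the 13554 gene names had a peak in CCI and 12907 had a peak in sham. Genes in 1 list alone thus occurred over the whole lists as well, and a difference of the microglia genes from the whole lists was not tested. The 14 genes with no peak included *Tyrobp*, the signalling partner of TREM2, *P2ry13*, *Gpr34*, *Itgb2* and *Fcrls*. *Trem2* and its adaptor were thus both without a listed peak. A missing peak can reflect a low level of the mRNA as well as a lack of m6A, and these cannot be told apart here.

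Markers of the other cells were set beside the microglia markers. The median log2 ratio was -0.01 for astrocyte genes (25 pairs), -0.06 for oligodendrocyte genes (33 pairs), 0.05 for neuronal genes (36 pairs) and 0.02 for endothelial genes (13 pairs). In the same order, 12, 15, 20 and 8 of these pairs were higher in CCI. For spinal *Hox* genes the median was -0.15, with 5 of 21 pairs higher in CCI, against 51.8% of all pairs. The *Hox* pairs come from 8 genes and are not independent, and a difference of this list from all pairs was not tested. The 3 pairs of border macrophage genes ran in both directions, *Cd163* with 22.9 in CCI and 5.00 in sham at one peak and 9.90 and 32.5 at another, and *Stab1* with 10.9 and 23.2. *Lyve1* had a sham peak only (2.84). The part of such macrophages in the values of the shared marker genes was not tested. Nor was the part of other cells of the tissue in the values of the markers and the other microglia genes.

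**Figure D3:**
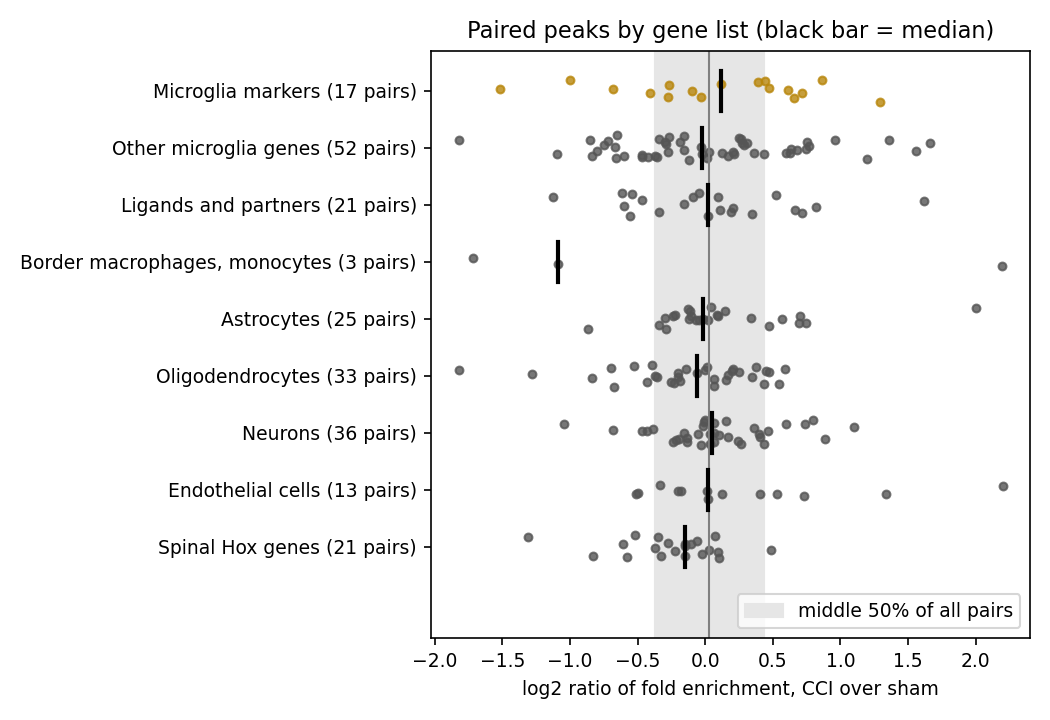
Log2 ratio of fold enrichment (CCI over sham) of each paired peak, 1 point per pair, by gene list, with the median of each list as a black bar, the median of all pairs as a grey line and their middle 50% as a grey band. The microglia markers spread from -1.52 to 1.29 around a median of 0.11, and the medians of all lists with more than 3 pairs lie inside the band.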

How the data were processed

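MeRIP-seq of spinal cord poly(A) RNA gave 1 IP and 1 input library each for CCI and sham. The authors deposited a peak list per group and a differential table. Fold enrichment in these files is the authors' ratio of IP over input, and the deposited log10 p and log10 false discovery rate were handled as a score. The paper names Cutadapt, bowtie, MACS2 and ChIPseeker, the submitters' processing notes name fastp, HISAT2, HOMER, ChIPseeker and GRCm38, and the column names are those of exomePeak. Whether calling used strand was not given in the sources used here. The 3 columns of the authors' comparison of CCI with sham (log2 fold change, p and false discovery rate) were not used, and only the positions and the fold enrichment of that table were.

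Rows were chosen by gene name. Peaks were compared by exonic blocks (at least 1 bp shared), and pairs are mutual best partners by shared over joined bases, formed over the whole lists. Shares have 95% Wilson intervals. The percentages over all pairs are a background for comparison and not a test, since library noise and group differences cannot be separated in them. The number of libraries limits all precision. RefSeq genes (GRCm38.p6) gave gene spans and neighbours, and all symbols of the lists matched. The members and the gene lists were chosen with earlier results of these data known. The genes named are all 9 markers, every ligand or partner with a peak, and of the other microglia genes those in 1 list alone or past an absolute log2 ratio of 1 and those with the highest fold enrichments, except for a result that is not reported here. *Axl*, *Tyro3* and the genes named as lacking a peak were chosen after their values were seen, as was the class of pairs with a geometric mean of at least 20. Pairing was tested on simulated lists. The search for an m6A motif was not run, since peak sequences were not used here. The scripts ran in Python 3.11.15 with scipy 1.17.1, pandas 2.3.3, numpy 2.4.6 and matplotlib 3.10.9.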

Additional observations from a re-analysis of the deposited data

How the results depend on the processing

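No paired analysis was possible because CCI and sham were each sequenced without replicates. Of 55 values under alternatives, 53 stayed within the Wilson interval, 1.5 times the count or 0.1 on the log2 scale, and none reversed. Many of them could hardly move, so this count does not measure robustness. Of the unmoved values, 36 were ratios of single peaks or row counts. Centring shifts each ratio by only 0.03, and weighting over all overlapping sham peaks left nearly every ratio unchanged. The false discovery rate setting removed no marker peak. With peaks of a fold enrichment of at least 2, the median log2 ratio of the marker pairs was 0.25 (14 pairs) in place of 0.11, since this setting leaves out weak pairs. With a threshold of 0.5, 5 marker pairs in place of 1 were higher in CCI, since a lower threshold admits more. Leaving out the pairs that lie over another RefSeq gene, an alternative chosen after seeing the data, gave a median of 0.04 over 14 pairs, and the same counts past 1. Merging overlapping rows left 20 peaks in each list. The motif search and its alternatives were not run. Without read counts, no error can be put on a fold enrichment.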
